A study of Mus musculus with 4 samples.

Results

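The genes described here encode the constitutive proteasome: the alpha and beta rings of its core particle, the base and lid of its regulatory particle, 3 chaperones of the base and 4 activators. They were chosen by name, as protein-coding mouse genes whose symbols start with Psma, Psmb, Psmc or Psmd and end in a number, leaving out the immunoproteasome subunits Psmb8, Psmb9 and Psmb10, together with Psme1 to Psme4. The rule names 40 genes, of which 39 are among the 33783 gene symbols that the libraries hold, and it used no measured value. The 8 alpha and 8 beta genes, 6 ATPases of the base, 3 other base subunits, 8 lid subunits, 3 base chaperones and 4 activators made 7 role groups.

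Total RNA was sequenced from 4 mouse libraries, 1 per group: whole embryos of embryonic day E11.5, of the genotype Adar1-/- or Adar1-/- Mavs-/- by label and the strain label C57B16/N, and livers of E15.5 embryos with the same 2 genotype labels and the strain label C57B6/J. Every library thus came from mice labelled as lacking Adar1, the RNA-editing enzyme of double-stranded RNA, and a mouse with Adar1 was not analysed here. Mavs, lacking in 1 library of each tissue, encodes the adaptor through which cytosolic RNA sensors signal to interferon genes. The sources used here do not give the number of animals behind a library or the form of the Adar1 and Mavs alleles.

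The proteasome is the barrel-shaped protease that degrades most ubiquitin-tagged proteins of the cytosol and nucleus. The rings of its core enclose the proteolytic sites, which are carried by the beta subunits encoded by Psmb5, Psmb6 and Psmb7, and the regulatory particle recognises ubiquitin, removes it, and unfolds and feeds in the substrate with a ring of ATPases. Interferon can replace the catalytic subunits by the immunoproteasome set, and when proteasome activity falls, the transcription factor NRF1, the product of Nfe2l1, is known to raise the genes of the constitutive particle together through antioxidant response elements.

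Promoter sequences were looked at for such an element, since the members are known to be co-regulated. The tables of RefSeq promoters on GRCm38.p6 matched 33 of the 40 genes, each with a window of 300 bases of which 250 lie before the start of transcription. The stricter form searched, TGACNNNGC on both strands, was found in 6 member windows, 18.2%, and in 12.5% of 27025 windows of all genes. The looser form TGANNNNGC, which contains the stricter form, was found in 18 member windows, 54.5%, against 41.4% of all. GGGCGG was in 63.6% of member windows and in 35.9% of all, CCAAT in 39.4% and 37.9%, and TATAAA in 9.09% and 14.2%. Among the 17492 windows of protein-coding genes the shares were 13.2% for TGACNNNGC, 41.7% for TGANNNNGC, 46.3% for GGGCGG, 39.0% for CCAAT and 13.3% for TATAAA. A match is a description of these letters and shows no binding. The sites closest to the start in catalytic subunit genes and in a base chaperone gene are shown with the match in capitals, in the direction of the gene. They lie at chr14:54618004-54618072 on the minus strand (Psmb5), chr11:70525318-70525356 on the plus strand (Psmb6) and chr5:123228129-123228189 on the plus strand (Psmd9).
Psmb5: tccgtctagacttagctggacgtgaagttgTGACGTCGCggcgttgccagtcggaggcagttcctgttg
Psmb6: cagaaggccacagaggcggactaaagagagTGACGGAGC
Psmd9: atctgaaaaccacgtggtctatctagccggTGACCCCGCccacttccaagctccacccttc

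Short transcript isoforms carried the larger differences of some members, so a pair of them is shown as annotated in GENCODE M21 on GRCm38, both on the plus strand. The Psma3 isoform ENSMUST00000162898 spans chr12:70986892-70994505, is 312 bases long in 4 exons, and all its bases lie in the 2846-base isoform ENSMUST00000160027, of which it skips 2 inner exons with 133 bases. Its 164 annotated coding bases are printed, with the bases around the joint over the skipped exons in capitals. They do not divide into whole codons, and read from the opening atg they soon meet the stop codon tga. That atg is thus not the start of the coding frame. The Psmd14 isoform ENSMUST00000125388 spans chr2:61776578-61800074, has 560 bases and no annotated protein, and shares 465 of them with the coding part of ENSMUST00000028278. Its first 160 bases are printed, with the 95 bases that the longer isoform lacks in capitals.
Psma3 ENSMUST00000162898: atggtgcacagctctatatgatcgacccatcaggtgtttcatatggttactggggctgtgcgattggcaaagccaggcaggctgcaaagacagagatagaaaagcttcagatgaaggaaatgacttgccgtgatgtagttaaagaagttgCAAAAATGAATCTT
Psmd14 ENSMUST00000125388: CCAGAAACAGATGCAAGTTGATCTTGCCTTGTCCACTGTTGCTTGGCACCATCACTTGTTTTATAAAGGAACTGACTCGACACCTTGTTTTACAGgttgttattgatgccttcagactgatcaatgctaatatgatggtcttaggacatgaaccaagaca

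Each isoform has a deposited FPKM value, the fragments per kilobase of its length scaled to the mapped fragments of its library, and a gene's level here is the sum over its isoforms. Ratios are on the log2 scale of FPKM plus 1 and set the library with both genotype labels, Adar1-/- Mavs-/-, over the Adar1-/- one of its tissue, after a factor that sets the median ratio of genes at 5 FPKM or more in both to 0 (1.34 in embryo, 0.995 in liver). The scale understates differences of low genes. A gene was counted with at least 1 FPKM in either library, and 2-fold means a log2 ratio of 1 or more, or of -1 or less. With 1 library per group there was no replicate check, and no test was made. All differences compare libraries, and the bounds given cover estimation within a library only. In RNA from whole tissue, fewer cells of a type and less RNA per cell cannot be told apart.

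The libraries differed in more than the labelled gene. In liver, Adar was at 5.56 FPKM in the liver labelled Adar1-/-, where 0 of its 8 reference isoforms were above 0, and at 4.11 FPKM in the liver labelled Adar1-/- Mavs-/-, where 3 were. Mavs was at 7.26 and 9.96 FPKM, so its level was not lower in the library labelled as lacking it. The sources used here do not say which part of either gene is deleted, so these levels do not check the labels, and every liver direction below is between livers named by their labels. All 8 hepatocyte markers were held in both liver libraries, with summed levels of 12127.5 and 13253.4 FPKM. The 6 skeletal muscle markers held summed to 133.5 FPKM in the liver labelled Adar1-/- and to 9.38 FPKM in the other, and 4 heart markers to 25.4 and 1.04 FPKM. The 4 cartilage markers summed to 3.78 and 0.252 FPKM (Matn1 at 0 in the second), the 4 endothelial markers to 70.0 and 41.0 FPKM, and the 6 macrophage markers to 108.8 and 153.0 FPKM (Cd68 at 0 in the first). The 5 erythroid markers held in both livers summed to 1895 and 2350 FPKM. In the liver labelled Adar1-/- 7 of the 10 erythroid markers were held and summed to 41400.7 FPKM, most of it without a counterpart value in the other. The 4 granulocyte markers summed to 293.0 and 283.1 FPKM (Prtn3 at 0 in the second). The 3 neural markers held summed to 6.49 and 2.50 FPKM (Sox2 at 0 in the second), and the 4 lymphoid markers to 7.67 and 9.71 FPKM. The part of these cells in the member values was not tested. The embryo values used here lie on chromosomes 10 and 11 and the start of chromosome 12, and in the Adar1-/- Mavs-/- library on all of chromosome 12 and part of chromosome 13.

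In liver, 39 of the 40 genes were held in both libraries, and they were among the more abundant transcripts. Their median level was 38.8 FPKM over the 38 members above 0 in the liver labelled Adar1-/- and 52.8 FPKM over the 37 above 0 in the liver labelled Adar1-/- Mavs-/-, against medians of 2.89 and 2.79 FPKM over all genes above 0. The members lay over the median gene in 36 of 38 and 35 of 37 cases. No identifier of Psma2, an alpha ring gene, was found in the values, so it has no level here. Leaving out Psma8 and Psmb11, which are known from testis and thymus, the levels of members above 0 ran from 6.31 FPKM (Psmd9) to 197 FPKM (Psmc3) in the liver labelled Adar1-/- and from 4.68 FPKM (Psmd9) to 259 FPKM (Psma3) in the other.

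**Figure D1:**
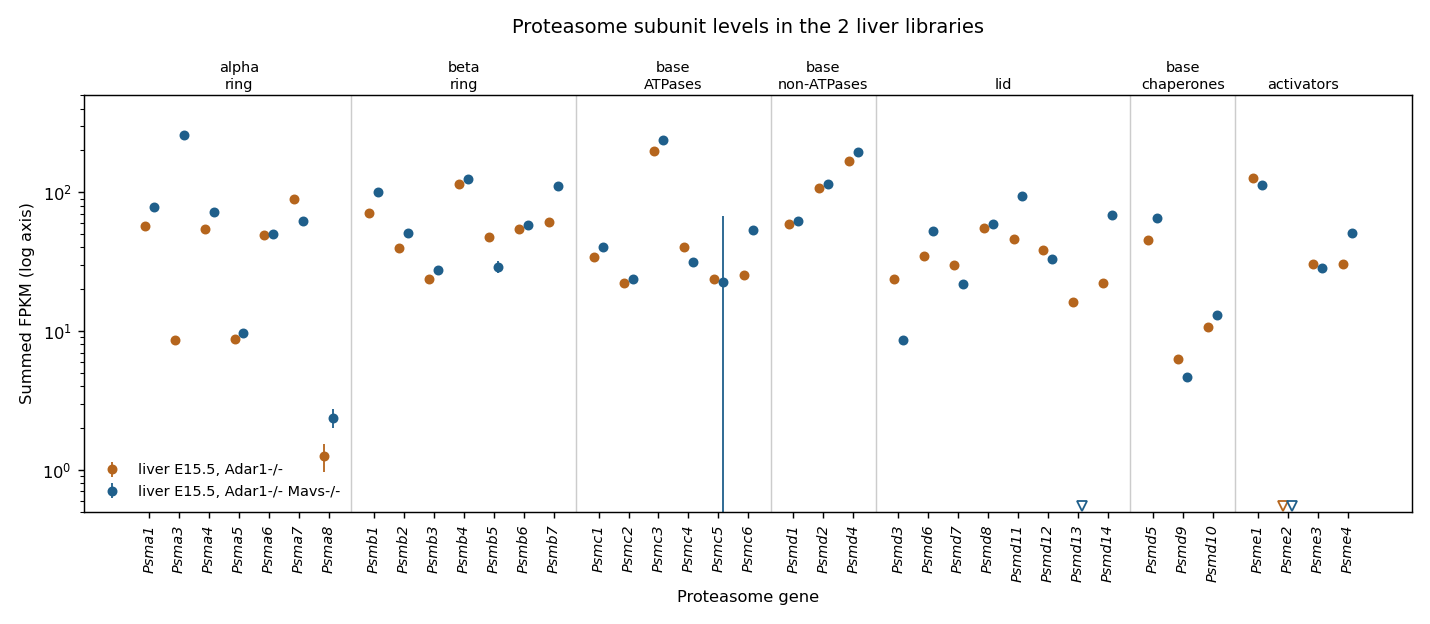
Summed FPKM (log axis) of 38 proteasome genes in the liver libraries labelled Adar1-/- (brown) and Adar1-/- Mavs-/- (blue), grouped by role, with the FPKM bounds as bars; open triangles at the base mark genes listed at 0, and Psmb11 and Psma2 are not drawn. Most pairs of points lie close together, while Psma3 stands at 8.60 and 259 FPKM and Psmd3 at 23.8 and 8.67 FPKM.

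In the alpha ring, whose subunits gate the entrance of the core, 6 of the 7 genes with a value were higher in the liver labelled Adar1-/- Mavs-/-, and the median of the 7 log2 ratios was 0.39. Of all 13851 genes counted in liver, 42.0% were higher, 9.75% at least 2-fold lower and 6.53% at least 2-fold higher. In TPM, which here sets the sum over the genes held in both libraries of a pair to 1 fixed total, 4 of the 7 were higher. Psma3 was at 8.60 FPKM in the liver labelled Adar1-/- and 259 FPKM in the liver labelled Adar1-/- Mavs-/-, a log2 ratio of 4.75. This is the ratio farthest from 0 among members above 0 in both livers, and it came from the short isoform printed above. ENSMUST00000162898 was listed at 248 FPKM in the liver labelled Adar1-/- Mavs-/- and at 0 in the other. The long isoform ENSMUST00000160027 (mm9 chr12:72075608-72097334) was at 8.60 and 11.1 FPKM. With isoforms of at least 600 bases the log2 ratio of Psma3 was 0.36, and with isoforms weighted by length it was 2.24. In embryo the same short isoform also held most of the gene's value, 74.6 of 81.9 FPKM in the Adar1-/- Mavs-/- library, and the locus was held only there.

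Psma7 was the alpha gene that was lower, at 89.6 and 61.8 FPKM, a log2 ratio of -0.54. Psma1 was at 57.3 and 78.3 FPKM and Psma4 at 54.5 and 72.1 FPKM, with log2 ratios of 0.44 and 0.39. Psma5 at 8.82 and 9.67 FPKM and Psma6 at 49.0 and 50.1 FPKM had overlapping bounds in the 2 livers. Psma8, the alpha subunit of the testis proteasome, stood at the foot of the group with 1.25 and 2.38 FPKM, a log2 ratio of 0.58. A transcript of status LOWDATA whose identifier the annotation does not hold made up 60.9% of the second value. Without such transcripts the log2 ratio of Psma8 was -0.23, and with protein-coding reference isoforms only it was -0.59.

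Among the beta ring genes the median log2 ratio was 0.21 (-0.10 in TPM), no gene was 2-fold apart, and the 3 catalytic genes went different ways. Psmb5, which encodes the subunit with chymotrypsin-like activity, was at 47.2 FPKM (bounds 43.6 to 50.9) in the liver labelled Adar1-/- and 29.0 FPKM (26.2 to 31.8) in the other, a log2 ratio of -0.69. Psmb6, with caspase-like activity, was at 54.5 and 57.9 FPKM, with overlapping bounds and a log2 ratio of 0.08. Psmb7, with trypsin-like activity, was at 61.0 FPKM (59.4 to 62.7) and 111 FPKM (109 to 114), a log2 ratio of 0.85, from a single isoform of 1160 bases. That isoform had the status LOWDATA, which marks uncertain estimates, in both livers. Gm13586, from the list of near copies and pseudogenes, lies within the Psmb7 locus and was at 21.1 and 24.6 FPKM. Reads of the 2 genes may not be separated. Of the catalytic genes, then, 1 was lower, 1 higher and 1 within its bounds. The value of Psmb5 was spread over 3 isoforms, of which an assembled one of 337 bases held 47.4% in the liver labelled Adar1-/-, and with isoforms of at least 600 bases its log2 ratio was -0.42.

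The non-catalytic beta genes that shape the ring were within 2-fold in the 2 livers. Psmb1 was at 71.3 and 100.5 FPKM, Psmb2 at 39.4 and 50.9 FPKM and Psmb3 at 23.5 and 27.5 FPKM, with log2 ratios of 0.48, 0.36 and 0.21. Psmb4 had the highest level of the ring, 115 and 124 FPKM, of which its protein-coding isoform held 10.9% and 7.79%. Psmb11, the catalytic subunit of the thymus proteasome, was at 0.0130 and 0.0250 FPKM, far under the filter.

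The ATPase ring of the base, which unfolds substrates, had a median log2 ratio of 0.15 (-0.16 in TPM), and 1 of its 6 genes was 2-fold apart. Psmc6 was at 25.3 FPKM (24.6 to 26.0) in the liver labelled Adar1-/- and 53.4 FPKM (52.3 to 54.6) in the liver labelled Adar1-/- Mavs-/-, a log2 ratio of 1.04. Here the difference lay in the full reference isoform of 2180 bases, at 18.2 and 48.2 FPKM. With reference isoforms only the log2 ratio was 1.35, with isoforms of at least 600 bases 1.08, and weighted by length 0.83, so the gene stayed higher while crossing the 2-fold line.

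Psmc3 was the highest ATPase gene, at 197 and 239 FPKM, and 78.4% and 79.2% of that was a 429-base isoform with no annotated protein. Psmc4 was at 40.0 and 31.3 FPKM, Psmc1 at 33.8 and 40.2 FPKM and Psmc2 at 22.3 and 23.7 FPKM, with log2 ratios of -0.35, 0.24 and 0.07. Psmc5 was at 23.8 and 22.4 FPKM, but the second value had bounds from 0 to 67.3 FPKM, and the first came from 1 transcript whose identifier the annotation does not hold. Without such transcripts Psmc5 was listed at 0 in the liver labelled Adar1-/-.

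The other base subunits were abundant and within 2-fold in the 2 livers. Psmd4, a ubiquitin receptor, was at 168 and 195 FPKM, of which a 314-base isoform with no annotated protein held 86.9% and 75.4%. Psmd2 was at 107 and 115 FPKM and Psmd1, the other large scaffold of the base, at 58.9 and 61.7 FPKM. The log2 ratios of Psmd4, Psmd2 and Psmd1 were 0.21, 0.10 and 0.06, a median of 0.10 (-0.22 in TPM). Psmd4 is the gene of this group that changed most with the isoforms used, with a log2 ratio of 1.12 over isoforms of at least 600 bases. That ratio rested on an isoform of 695 bases, at 21.9 FPKM in the liver labelled Adar1-/- Mavs-/- and not above 0 in the other. The protein-coding isoform of 1332 bases was at 21.9 and 26.0 FPKM.

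The lid, which holds the deubiquitinase and surrounds it with scaffold subunits, was the most divided group, with 2 genes at least 2-fold lower and 2 at least 2-fold higher of 8, and a median log2 ratio of -0.06, which was 0.07 with an upper quartile factor. Psmd3, a scaffold subunit, was at 23.8 FPKM (23.1 to 24.6) in the liver labelled Adar1-/- and 8.67 FPKM (8.19 to 9.15) in the liver labelled Adar1-/- Mavs-/-, a log2 ratio of -1.37. Its protein-coding isoform of 2148 bases (mm9 chr11:98543868-98557293) alone was at 20.95 and 7.75 FPKM. Psmd3 was the member whose 2-fold difference was kept under all 13 alternative settings, where its log2 ratio ran from -1.65 to -1.08.

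Psmd14 encodes the deubiquitinase of the lid and was at 22.3 FPKM in the liver labelled Adar1-/- and 68.0 FPKM in the other, a log2 ratio of 1.56. Its protein-coding isoform was almost level, at 19.1 and 18.9 FPKM, and the difference was the isoform ENSMUST00000125388 printed above, at 49.1 FPKM in the liver labelled Adar1-/- Mavs-/-. With isoforms of at least 600 bases the log2 ratio of Psmd14 was -0.20, and weighted by length 0.13. Psmd11, at 46.1 and 94.5 FPKM with a log2 ratio of 1.01, likewise rested on a short transcript, assembled from the reads, of 398 bases and 64.7 FPKM in the liver labelled Adar1-/- Mavs-/-. Without isoforms under 600 bases its log2 ratio was -0.58. The remaining isoforms of Psmd11 were thus lower, not higher, in that library.

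Psmd13 was at 16.1 FPKM in the liver labelled Adar1-/- and listed at 0 in the liver labelled Adar1-/- Mavs-/-, so it has no fold. An exact 0 in these values can be a failed estimate, so it does not show that the gene is absent there. Its value in the first library came from 2 assembled transcripts of 7.35 and 8.77 FPKM, while its reference isoforms were listed at 0 in both livers. Gm15542, a pseudogene within its locus, was at 42.5 and 48.3 FPKM, and reads of such overlapping copies can be divided between them. The other lid genes stayed within 2-fold. Psmd6 was at 34.5 and 52.8 FPKM, Psmd7 at 29.9 and 21.8 FPKM, Psmd12 at 38.2 and 33.0 FPKM and Psmd8 at 54.9 and 59.2 FPKM, with log2 ratios of 0.59, -0.45, -0.21 and 0.10.

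The base chaperones, which help to assemble the regulatory particle and leave it again, differed in level: Psmd5 lay over the members' median in both livers, and Psmd9 and Psmd10 were low. Psmd5 was at 44.9 and 64.7 FPKM, Psmd10 at 10.7 and 13.0 FPKM and Psmd9 at 6.31 and 4.68 FPKM. The log2 ratios were 0.51, 0.25 and -0.37. A 555-base isoform held 54.4% and 52.6% of the Psmd5 level. The other Psmd5 isoform, of 2020 bases, was at 20.5 and 30.7 FPKM. From isoforms of at least 600 bases Psmd5 thus lay under the members' medians, 30.3 and 36.0 FPKM without Psma8 and Psmb11.

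The activators bind the ends of the core in place of the regulatory particle. Psme4, the large single-chain activator, was at 30.2 FPKM (29.7 to 30.6) and 50.6 FPKM (50.0 to 51.2), a log2 ratio of 0.72, all of it in 1 protein-coding isoform of 6491 bases. Psme3, the nuclear activator, was at 30.5 and 28.3 FPKM, a log2 ratio of -0.11. Psme1, a subunit of the interferon-inducible activator, was at 127 and 112 FPKM with a log2 ratio of -0.19, and all of this was in isoforms annotated as retained intron or nonsense-mediated decay. Psme2, its partner in the same ring, was listed at 0 in both livers, while Psme2b, a near copy on chromosome 11, was at 53.1 and 44.9 FPKM, and reads of these genes may not be separated.

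**Figure D2:**
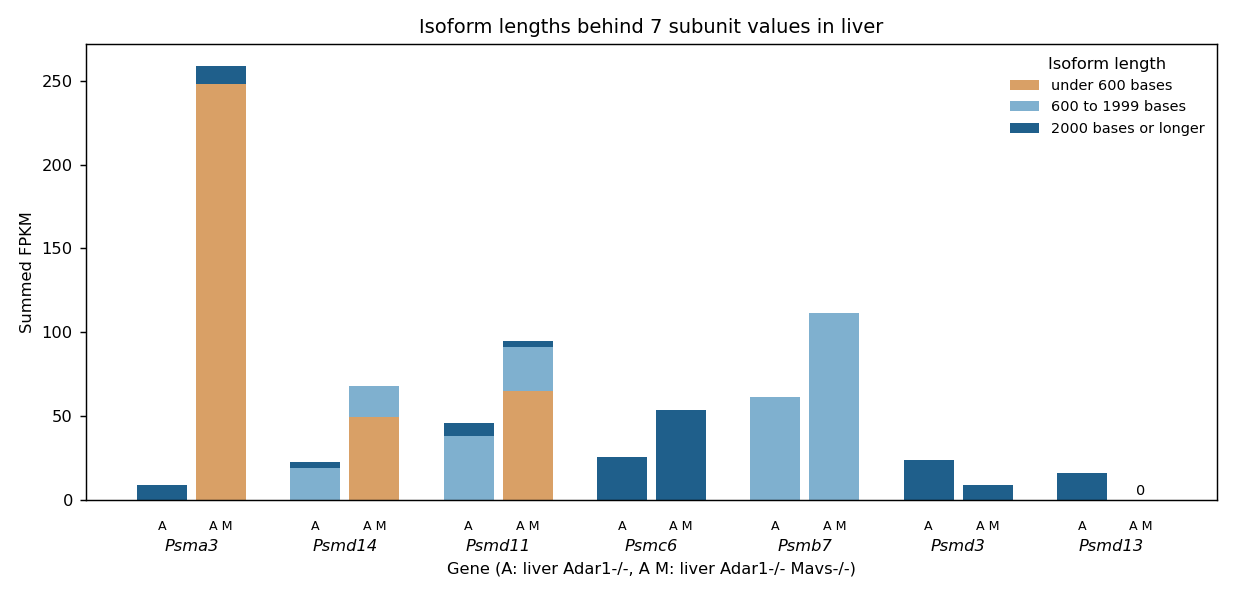
Summed FPKM of 7 proteasome genes in the liver libraries labelled Adar1-/- (A) and Adar1-/- Mavs-/- (A M), each bar divided by the length of the isoforms that hold the value. Isoforms under 600 bases (orange) appear in the second bar of Psma3, Psmd14 and Psmd11 and are absent from the bars of Psmc6, Psmb7, Psmd3 and Psmd13.

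Over the 37 members counted in liver the median log2 ratio was 0.11 (interquartile range -0.11 to 0.48), against -0.12 over all 13851 genes counted. Above 0 were 26 members, 70.3%, against 42.0% of all genes. At least 2-fold lower were 2 members, Psmd3 and Psmd13 (the latter through its listed 0), or 5.41%, where 9.75% of all genes were. At least 2-fold higher were 4, Psma3, Psmd14, Psmc6 and Psmd11, or 10.8%, where 6.53% of all genes were. With isoforms of at least 600 bases the members at least 2-fold higher were 2, Psmc6 and Psmd4, where 5.22% of all genes were. Psmd4 was there through an isoform of 695 bases that was above 0 in 1 of the livers only. Among genes with at least 5 FPKM in both livers, 34 members had a median of 0.16 against 0 over all 6889. In that set 1 member was 2-fold lower, with 4.35% of all genes lower, and 4 were higher, with 2.38% of all genes higher.

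The sign of the liver median depends on the scaling. In TPM the members' median log2 ratio was -0.18, with 24 below 0 and 13 above, but the median of all genes moved with it. The members' median lay 0.23 over that of all genes with the scaling used, 0.23 as deposited and 0.20 in TPM. A scaling shifts all genes of a library alike, so it cannot check this gap. Over the alternatives other than scalings the gap ran from 0.16 (at least 5 FPKM in either library) to 0.50 (protein-coding reference isoforms). The FPKM bounds were apart for 30 of 37 members, 20 of them higher and 10 lower in the liver labelled Adar1-/- Mavs-/-. Of all genes counted the bounds were apart for 71.2%, with 28.3% higher and 42.9% lower, and they cover estimation within a library only. The members' levels in the 2 livers had a Pearson r of 0.84 and a Spearman rho of 0.75 on the log scale over 37 genes above 0 in both, and 0.93 and 0.88 with isoforms of at least 600 bases, while r over 17833 genes was 0.97. These correlations are across genes, which are not independent replicates.

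**Figure D3:**
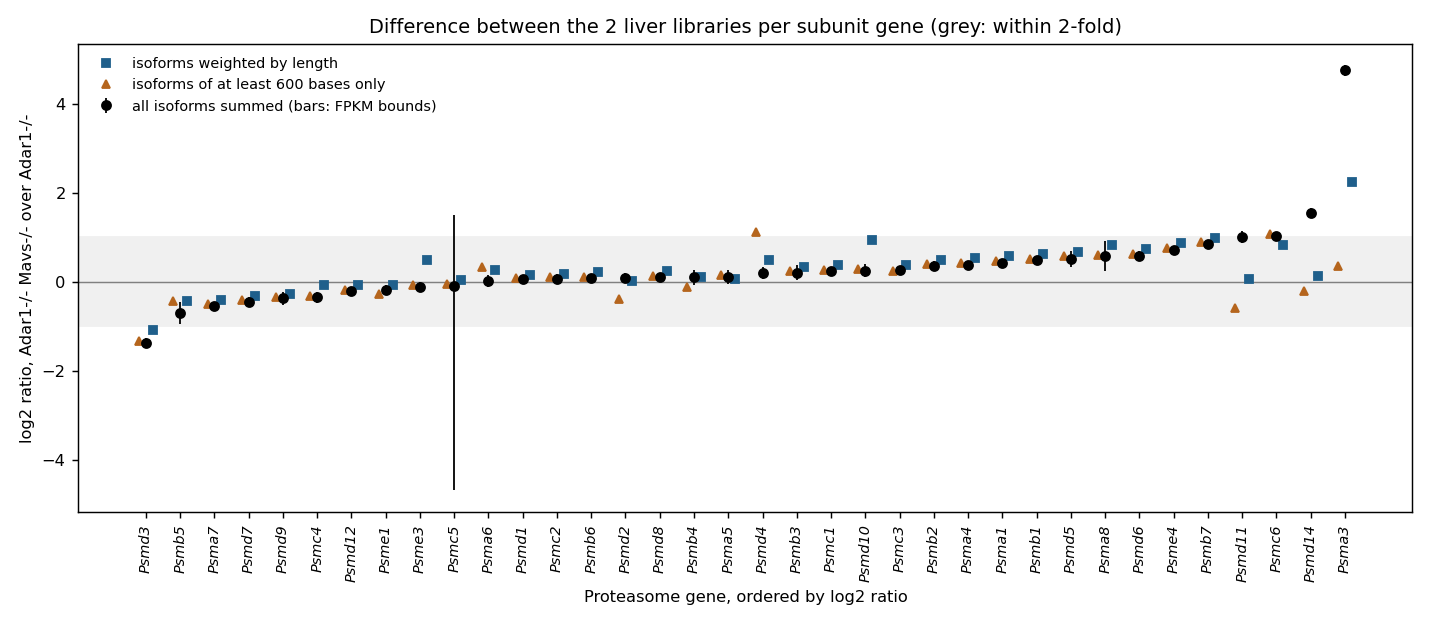
Log2 ratio of FPKM plus 1, liver library labelled Adar1-/- Mavs-/- over the one labelled Adar1-/-, for 36 proteasome genes above 0 in both, ordered by ratio (black, bars from the FPKM bounds), with the same from isoforms weighted by length (blue squares) and from isoforms of at least 600 bases (brown triangles). Psma3, Psmd14 and Psmd11 drop towards 0 without short isoforms, and Psmd3 stays below -1 in all 3.

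Isoforms under 600 bases held most of the level of 5 of 38 members in the liver labelled Adar1-/- and of 8 of 37 in the liver labelled Adar1-/- Mavs-/-. Isoforms with a non-coding type in the annotation held most of it for 6 and 5 members. Every isoform above 0 had the status LOWDATA, which the deposited values give beside uncertain estimates, for 13 and 8 members.

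In embryo, 8 of the 40 genes lay in the stretch held by both libraries, all of them on chromosome 11 and all counted. Psmb6, the catalytic beta gene, had the highest level of them, 214.7 FPKM in the Adar1-/- library and 199.7 FPKM in the Adar1-/- Mavs-/- library. Psmc5 was at 49.9 and 59.7 FPKM and Psmb3 at 49.9 and 50.4 FPKM. All 8 lay over the library's median gene, 4.31 FPKM in the Adar1-/- library and 3.04 FPKM in the other. The lid genes were Psmd3 at 47.0 and 49.6 FPKM, Psmd12 at 25.5 and 24.8 FPKM and Psmd11 at 24.3 and 34.3 FPKM. Before scaling, Psmb3, Psmb6, Psmd3 and Psmd12 were thus near level between the libraries. Of the activators, Psme3 was at 38.2 and 30.2 FPKM, with overlapping bounds, and Psme4 at 32.1 and 11.4 FPKM. Psma3 at 81.9 FPKM, Psma6 at 11.9 FPKM and Psmc1 at 53.1 FPKM were held only in the Adar1-/- Mavs-/- library and enter no comparison.

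**Figure D4:**
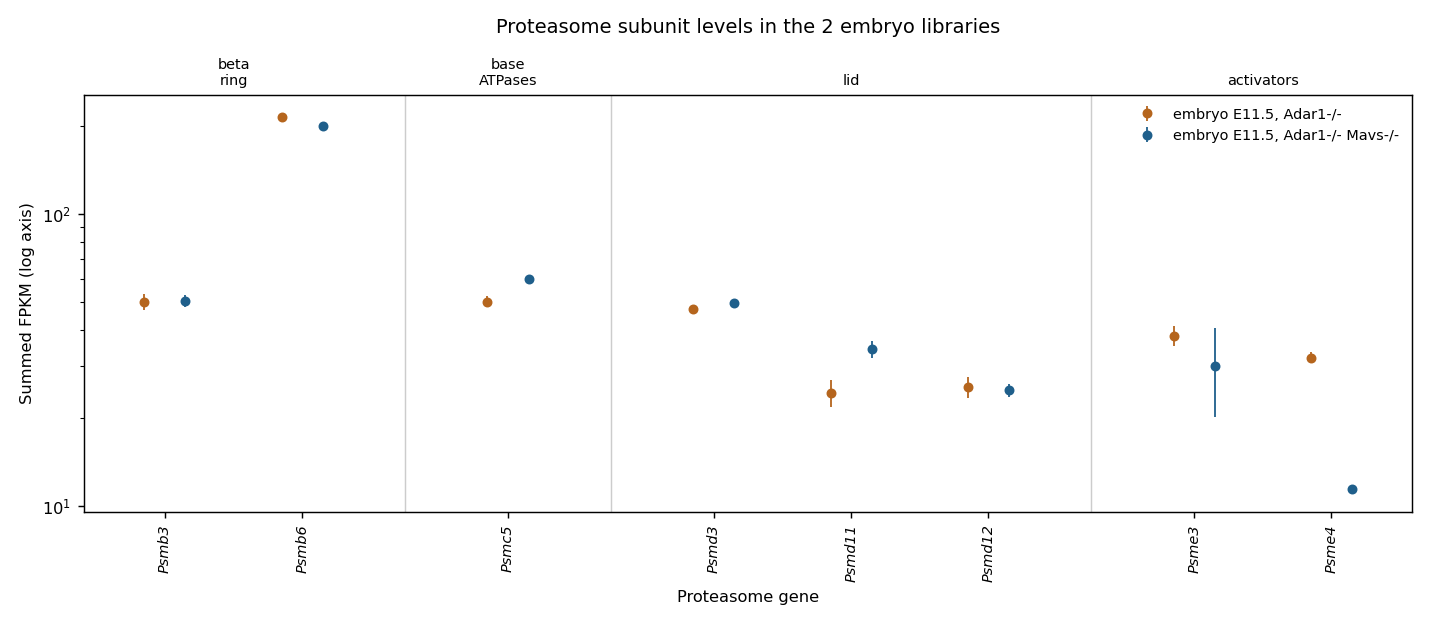
Summed FPKM as deposited (log axis) of the 8 proteasome genes held in both embryo libraries, Adar1-/- (brown) and Adar1-/- Mavs-/- (blue), with the FPKM bounds as bars. The 2 points of most genes lie close together, and Psme4 stands apart at 32.1 and 11.4 FPKM.

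After scaling, the embryo log2 ratios were 0.43 for Psmb3, 0.31 for Psmb6, 0.67 for Psmc5, 0.49 for Psmd3, 0.89 for Psmd11, 0.37 for Psmd12, 0.08 for Psme3 and -1.03 for Psme4. Their median was 0.40, against -0.12 over the 1915 genes counted. At least 2-fold lower was 1 member, where 9.77% of all genes were, and 0 were 2-fold higher, where 6.42% of all genes were. With at least 5 FPKM in both libraries the same 8 members were set against 3.91% lower and 4.11% higher of 973 genes. These signs come with the scaling. As deposited the members' median was -0.01 and in TPM it was -0.51, with 8 of 8 below 0, while the median of all genes moved too. The members' median lay 0.51 over that of all genes with the scaling used, 0.45 as deposited and 0.35 in TPM. As in liver, a scaling cannot check this gap. Over the alternatives other than scalings it ran from 0.44 (pseudocount of 5) to 0.62 (isoforms weighted by length). The Psmc5 level in both embryo libraries came from 1 transcript of status LOWDATA whose identifier the annotation does not hold, and was 0 without it. Protein-coding isoforms held 0% of the Psme3 level in the Adar1-/- library and 16.5% in the other. With reference isoforms only the log2 ratio of Psmd12 was 0.92.

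The Psme4 difference in embryo rested on an assembled transcript of 1569 bases, at 18.2 FPKM in the Adar1-/- library and lacking in the other. Its protein-coding isoform was at 13.9 and 11.4 FPKM, and with reference isoforms only the log2 ratio was 0.09. Psme2b, the copy of Psme2, was at 91.1 and 32.9 FPKM in embryo, a log2 ratio of -1.03. Tissue, age and strain label all differ between embryo and liver, so the pairs of libraries are given side by side. Psmd3 had log2 ratios of 0.49 in embryo and -1.37 in liver, and Psme4 of -1.03 and 0.72. Psmd11 had 0.89 and 1.01, but these values rested on different transcripts. In embryo 90.5% and 89.9% of its level was ENSMUST00000172773, a nonsense-mediated decay isoform of status LOWDATA. No protein-coding isoform of Psmd11 was above 0 there. In liver ENSMUST00000172773 was at 28.7 and 19.3 FPKM. The liver ratio came from the assembled transcript of 398 bases, and was -0.58 without isoforms under 600 bases.

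Of the 29 genes reported here from around the proteasome, which the rule leaves out, 27 were counted in liver. Their log2 ratios had the median -0.04, with 14 below 0 and 13 above, and in TPM the median was -0.34. The list holds the immunoproteasome subunits, assembly chaperones, an inhibitor, ubiquitin receptors and tethers, deubiquitinases, the genes of transcriptional control, and ubiquitin with its activating enzyme. Among these 27, at least 2-fold higher were Psmb9, Psmb10 and Psmg4. Psmb9, Psmb10 and Psmg4, a chaperone of core assembly, were listed at 0 in the liver labelled Adar1-/- and at 2.19, 5.76 and 5.15 FPKM in the other, so none of these has a fold. The level of Psmg4 came from assembled transcripts, and with reference isoforms only its log2 ratio was 0. With isoforms of at least 600 bases the log2 ratio of Psmb9 was 0.56, against 1.67 with all isoforms, and that of Psmb10 was 2.78.

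The immunoproteasome genes, which interferon induces, were low next to the constitutive catalytic genes in the liver labelled Adar1-/- Mavs-/-. In the liver labelled Adar1-/- this can be said of Psmb8 only, since a listed 0, as for Psmb9 and Psmb10, can be a failed estimate. Psmb8 was at 4.55 and 3.18 FPKM, a log2 ratio of -0.41, where its constitutive counterpart Psmb5 was at 47.2 and 29.0 FPKM. Pomp, the maturation factor of the core, was at 44.3 and 52.0 FPKM, a log2 ratio of 0.22. Nfe2l1 was at 10.2 and 5.47 FPKM, a log2 ratio of -0.80. Several genes of ubiquitin supply and extraction lay below 0 as well, with log2 ratios of -0.86 for Ubb, -0.78 for Uba1 and -0.97 for Vcp. In embryo, 3 of the list were counted in both libraries, Nfe2l1 at -0.23, Rps27a at 0.62 and Ubb at 0.92.

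**Figure D5:**
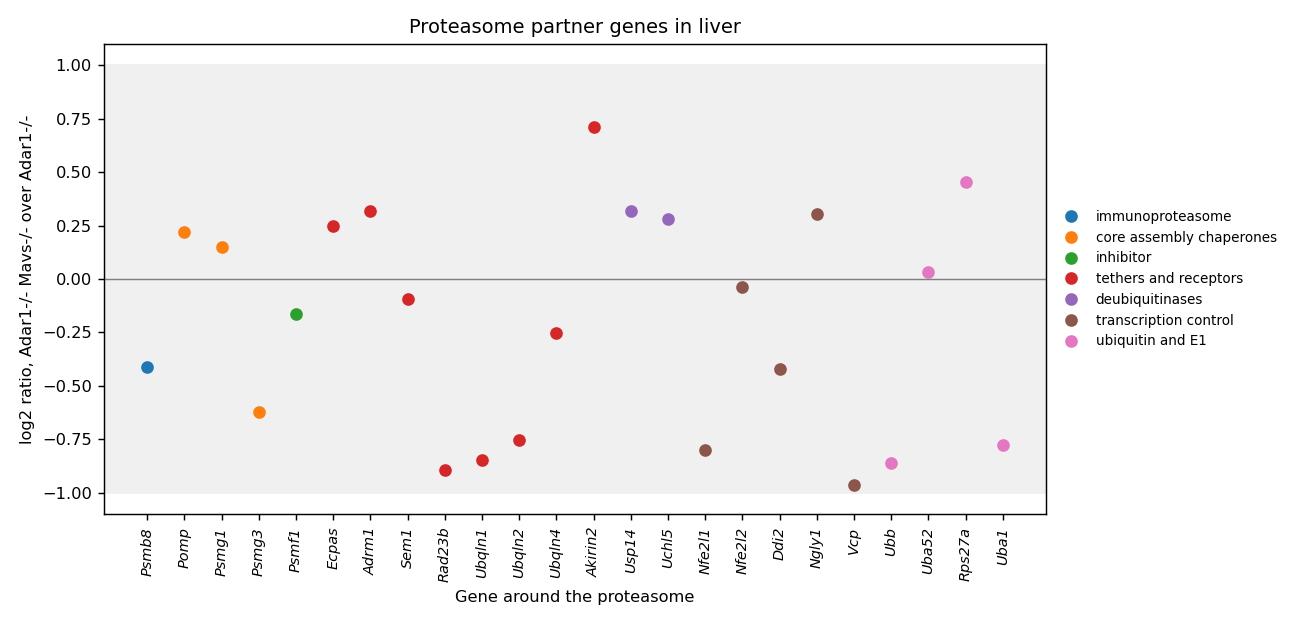
Log2 ratio of FPKM plus 1, liver library labelled Adar1-/- Mavs-/- over the one labelled Adar1-/-, for the 24 reported genes around the proteasome above 0 in both, coloured by role; the grey band is within 2-fold. The 24 points lie within the band, from -0.97 for Vcp to 0.71 for Akirin2, and Psmb9, Psmb10 and Psmg4, each listed at 0 in 1 library, are not drawn. With reference isoforms only, which are not drawn, the log2 ratio of Akirin2 was 0, and that of Psmg1 was -1.05 in place of 0.15.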

How the data were processed

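The deposited files hold 1 FPKM value per isoform and library, with lower and upper bounds and a status, and the mean coverage of the isoform, per the file headers. The mm9 build, TopHat 1.4.0, Cufflinks 2.2.1 and edgeR 3.4.2 stand in the list of tools and builds, per the submitters' processing notes, which give them no role, and no edgeR output was used. The sources used here do not give the strandedness, the read totals or the treatment of multiply mapped reads, so depth is unknown, and reads of near copies or antisense genes may not be separated. Coverage per FPKM, which follows depth, was 3.48 and 5.62 in the embryo and 8.58 and 7.13 in the liver libraries, Adar1-/- first.

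Symbols came from GENCODE M21 through Ensembl transcript identifiers (86.7% to 90.2% matched). Assembled isoforms, and Ensembl isoforms not in that annotation, were counted under the symbol of their Cufflinks gene they overlapped best. FPKM was summed per symbol, bounds were combined as the root of summed squares, and log2 ratios used a pseudocount of 1. The scale factors came from 973 genes in embryo and 6889 in liver. The script was tested on simulated data. Python 3.11.15, numpy 2.4.6, pandas 2.3.3, scipy 1.17.1 and matplotlib 3.10.9 were used.

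The rule for named genes took every member held in both embryo libraries, the liver members 2-fold apart and the highest and lowest FPKM of each role group. It also took Psmb5, Psmb6, Psmb7, Psma8, Psmb11 and Psme1 to Psme4. Of the partner list it took every gene 2-fold apart, Psmb8, Psmb9, Psmb10, Pomp and Nfe2l1. The other members, Psme2b, Gm13586, Gm15542, Ubb, Uba1, Vcp and Rps27a were added after their values were seen. Some genes of the partner list are not reported here and were left out of its counts and median. The members and lists were chosen with earlier results of these data known. The alternatives were other isoform sets, scalings, pseudocounts, filters and isoform weights, 13 in all, of which 4 (weighting by length, isoforms of at least 600 bases, leaving out unmatched identifiers, protein-coding reference isoforms) were chosen after seeing the data.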

Additional observations from a re-analysis of the deposited data

Results flagged for a closer look

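Psmd3 and Psme4 moved in opposite directions in the 2 tissues under the same pair of labels. The log2 ratio of Psmd3 was 0.49 in embryo and -1.37 in liver, and that of Psme4 was -1.03 in embryo and 0.72 in liver. With 1 library per group these differences were not tested, and tissue, age and strain label differ as well. The embryo sign of Psmd3 turns to -0.43 in TPM, and that of Psme4 to 0.086 with reference isoforms only.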

How the results depend on the processing

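No paired analysis was possible because each group has 1 library. The liver median of 0.11 and the embryo median of 0.40 kept their sign under the alternatives, except in TPM (liver -0.18, embryo -0.51) and, in embryo, as deposited (-0.01). The count of members 2-fold higher in liver, 4 in the report, was 8 with isoforms of status OK (of 30 members, with 14.7% of all genes higher and 14.1% lower), 2 in TPM, 2 with a pseudocount of 5, 2 with isoforms of at least 600 bases and 1 with isoforms weighted by length. The count 2-fold lower, 2 in the report, was 4 with status OK, 1 with reference isoforms and 1 with protein-coding reference isoforms. In embryo the count higher, 0 in the report, was 2 with status OK and 1 with the upper quartile factor, with length weights, without unmatched identifiers and with protein-coding isoforms. The count lower, 1 in the report, was 2 with status OK and 0 with reference isoforms, the upper quartile factor, a pseudocount of 5, length weights and protein-coding isoforms. Of the members 2-fold apart in the report, those whose sign changed were Psme4 in embryo (0.086 with reference isoforms, 0.14 with protein-coding ones), Psmd11 in liver (-0.51 with reference isoforms, -0.58 from 600 bases, -0.42 with protein-coding ones) and Psmd14 in liver (-0.20 from 600 bases, and listed at 0 in the library labelled Adar1-/- Mavs-/- with status OK, which the log2 scale gives as -4.54). Members within 2-fold in the report changed sign too: with those named, 19 of 37 in liver, 13 of them in TPM and 8 with status OK, and 8 of 8 in embryo, 7 of them in TPM. The median of the partner list, -0.04, ran from -0.34 to 0.17. Depth sets the bounds, not the spread between animals, which these libraries cannot give.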
